A study of Saccharomyces cerevisiae with 24 samples.

Results

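The sulfate assimilation and methionine genes of budding yeast were followed here through 3 ways of isolating RNA, before and after a heat shock. The 10 genes, MET3 (YJR010W), MET14 (YKL001C), MET16 (YPR167C), MET5 (YJR137C), MET10 (YFR030W), MET2 (YNL277W), MET6 (YER091C), SAM1 (YLR180W), SAM2 (YDR502C) and STR3 (YGL184C), were chosen by name from the pathway, with earlier results of these data known. They are 10 of the 6685 transcripts in the table. All 10 passed the filter on low values (a mean of at least 1 TPM in at least 1 group), as did 6137 transcripts in all.

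The data were 24 poly(A) RNA-seq libraries from 4 cultures of BY4741, a MATa strain of the S288c background that carries deletions in HIS3, LEU2, MET17 (also called MET15) and URA3 (his3Δ1 leu2Δ0 met15Δ0 ura3Δ0). Every group had this genotype, and cells were grown in synthetic complete medium at 30 °C. From each culture, unstressed aliquots were taken at 30 °C. The same culture was then brought to 37 °C by adding medium prewarmed to 55 °C, and heat-shocked aliquots were taken after 20 min, so that the rise in temperature and the added fresh medium cannot be told apart. RNA of 1 aliquot each was isolated with hot acid phenol followed by a silica column (Phenol), with a silica column kit (RNeasy) or with a guanidinium-phenol reagent and column (Direct-zol), which gave 6 groups of 4 libraries. The replicate number names the culture, 1 to 4, and each culture was heat-shocked once, so a difference between heat-shocked cultures cannot be told apart from a difference between their heat shocks.

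Yeast takes up sulfate and activates it with ATP, and the activated sulfate is phosphorylated and then reduced in successive steps to sulfite and sulfide. Sulfide is joined to O-acetylhomoserine by the MET17 product to give homocysteine, which is methylated to methionine and then converted to S-adenosylmethionine, the methyl donor of the cell. A strain without MET17 cannot make this junction and depends on methionine or another organic sulfur source in the medium. The genes of the pathway are known for their shared control by Met4, an activator that reaches promoters through Cbf1 or through Met31 and Met32 and that is held in check by the ubiquitin ligase subunit Met30 when S-adenosylmethionine is plentiful.

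The strain and treatment could be read from the libraries. MET17 was listed at 0 TPM in 23 of 24 libraries and at 0.1 TPM in the other. LEU2 did not pass 0.09 TPM and URA3 was listed at 0 throughout, whereas HIS3, of which the deletion leaves a part, lay between 47.88 and 112.08 TPM. MFA1, MFA2 and STE2, which MATa cells express, added up to between 789.3 and 2551.14 TPM. The MATα genes MF(ALPHA)1 and MF(ALPHA)2 did not pass 2.62 TPM, and the summed level of the 3 MATα genes, STE3 included, was between 4.47 and 17.54 TPM. The chaperone genes HSP104, SSA4 and HSP26 rose in heat shock by 4.63, 7.45 and 7.90 on the log2 scale (means of the 3 methods).

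All 10 genes are annotated as 1 coding exon each, from the 609 bases of MET14 to the 4329 bases of MET5 (S288c, build R64). No other annotated gene overlaps them. Rows named YNL276C and YER090C-A, next to MET2 and MET6 by systematic name, are not in the annotation used, so whether they overlap these genes was not tested. SAM1 and SAM2 are close copies, with 83.2% identical aligned bases over their coding sequences, yet only 20 of the 1100 possible 50-base reads of SAM1 and 20 of the 1106 of SAM2 also occur in another coding sequence. For the other 8 genes no such read was found.

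The stretch from 250 to 101 bases before the start codon is shown for 7 genes. MET14, MET16 and MET10 are shown because they hold the binding motif of Cbf1, and MET2, STR3, SAM1 and SAM2 because much of the text below is about their levels. The sequences are from RefSeq (R64) and are written 5′ to 3′ on the strand of the gene. Capitals mark a match, on either strand, to one of 5 motifs: CACGTG (Cbf1), AAACTGTG (Met31 and Met32), TGACTC (Gcn4), AGGGG (stress response element) or GAANNTTC (the unit pair of the heat shock element).
MET14 (chrXI:439486-439635, minus strand): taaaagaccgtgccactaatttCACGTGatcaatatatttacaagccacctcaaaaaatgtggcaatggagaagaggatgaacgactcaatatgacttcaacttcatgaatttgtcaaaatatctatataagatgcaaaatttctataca
MET16 (chrXVI:877733-877882, minus strand): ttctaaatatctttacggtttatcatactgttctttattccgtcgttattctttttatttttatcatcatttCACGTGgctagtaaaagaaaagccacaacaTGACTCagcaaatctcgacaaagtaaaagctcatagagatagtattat
MET10 (chrVI:213062-213211, plus strand): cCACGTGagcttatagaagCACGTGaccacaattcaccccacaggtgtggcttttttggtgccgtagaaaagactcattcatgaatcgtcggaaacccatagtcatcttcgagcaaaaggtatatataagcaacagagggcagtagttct
MET2 (chrXIV:117099-117248, plus strand): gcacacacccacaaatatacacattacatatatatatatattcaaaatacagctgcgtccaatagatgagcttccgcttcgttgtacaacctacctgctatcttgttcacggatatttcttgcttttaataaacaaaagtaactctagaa
SAM1 (chrXII:515012-515161, plus strand): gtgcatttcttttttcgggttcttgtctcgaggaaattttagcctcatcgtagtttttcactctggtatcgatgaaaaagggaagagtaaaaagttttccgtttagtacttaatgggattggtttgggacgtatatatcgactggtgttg
SAM2 (chrIV:1454565-1454714, minus strand): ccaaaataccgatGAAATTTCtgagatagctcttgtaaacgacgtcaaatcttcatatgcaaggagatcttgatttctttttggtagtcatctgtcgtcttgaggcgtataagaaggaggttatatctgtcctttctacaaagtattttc
STR3 (chrVII:156113-156262, minus strand): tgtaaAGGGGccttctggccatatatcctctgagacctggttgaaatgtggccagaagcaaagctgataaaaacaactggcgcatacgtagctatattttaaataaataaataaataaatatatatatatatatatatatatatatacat

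CACGTG was found in 3 of the 10 promoters, counted from 250 bases before to 50 after the start, against 2.92% of all 6001 promoters of the same window. It occurred at 1 position in MET14 and in MET16 and at 2 in MET10, and it reads the same on both strands. TGACTC was in MET16 and MET5 (7.98% of all promoters), AGGGG in SAM2 and STR3 (21.61%) and GAANNTTC in SAM2 (11.8%). One of these, the AGGGG of SAM2, lies nearer to the start than the stretch shown. AAACTGTG was in none of the 10, and in 1.58% of all promoters. MET3, MET2, MET6 and SAM1 held none of the 5 motifs in this window, which says only that these letters are not there.

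In unstressed cells the 10 genes formed 3 tiers of transcript level, and TPM, being per length, allow this comparison between genes. The last enzymes of the pathway were at the top. SAM1 had 665 ± 33.6 TPM with Phenol, 446 ± 11.2 with RNeasy and 552 ± 37.4 with Direct-zol (mean ± SD, n = 4). MET6, the methionine synthase that methylates homocysteine, had 662 ± 64.4, 484 ± 64.6 and 501 ± 44.7 TPM, and its range overlapped that of SAM1 with each method. SAM2 came next with 391 ± 24.7, 380 ± 28.6 and 403 ± 31.9 TPM.

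The 5 genes that turn sulfate into sulfide formed the middle tier in unstressed cells, with group means between 13 TPM (MET16 with Phenol) and 40.5 TPM (MET14 with RNeasy). Their order changed with the method. MET10 was the highest of them with Phenol, and MET14 with RNeasy and Direct-zol. MET2 and STR3 were the lowest, at 3.32 to 6.30 TPM, and their ranges overlapped with each method.

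**Figure D1:**
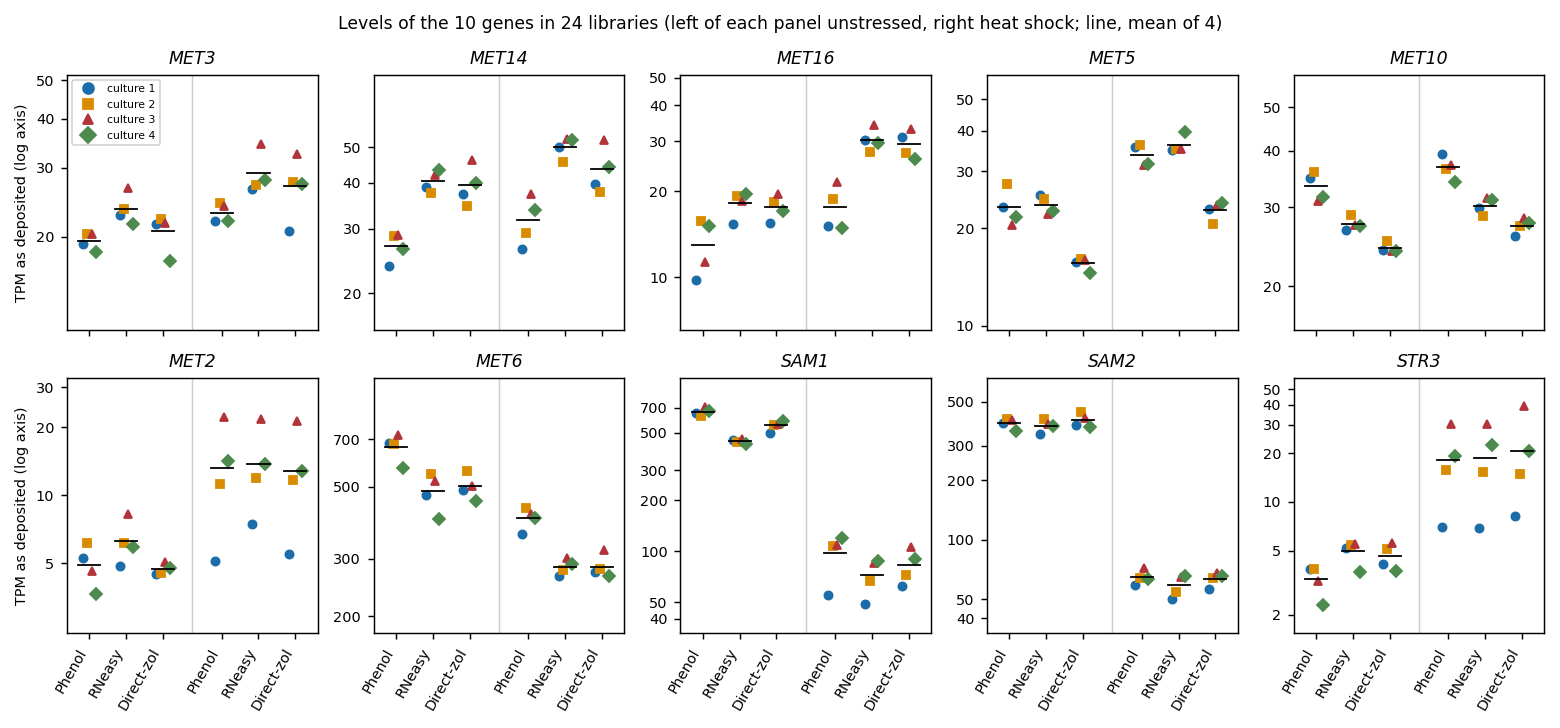
TPM of each gene as deposited, on log axes, for the 4 cultures (colour and shape) with each method, unstressed on the left of a panel and after heat shock on the right; lines are means of 4. SAM1, SAM2 and MET6 are lower after heat shock with every method, and in MET2 and STR3 the heat-shocked cultures spread apart, with culture 1 the lowest and culture 3 the highest.

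After scaling between libraries, heat shock lowered the 3 most abundant genes and raised STR3 and MET5 with every method. MET16 was raised with RNeasy and Direct-zol and MET2 with Phenol and Direct-zol, while MET3, MET14 and MET10 stayed near their unstressed level. Differences between groups are given on the scale of log2(scaled TPM + 1), from a limma fit of all 24 libraries with group and culture as factors. A gene was called at an FDR under 0.01 over all 6137 transcripts tested. With Phenol 6 of 10 genes were called, with RNeasy 6 and with Direct-zol 7, beside 63.9%, 63.4% and 63.7% of all transcripts, so the share of genes called was near that of the background. Of the 10, 3 were higher and 3 lower with Phenol (31.1% and 32.8% of all transcripts), 3 and 3 with RNeasy (31.3% and 32.1%) and 4 and 3 with Direct-zol (31.7% and 32.1%). The calls with all 3 methods were those of MET5 and STR3, which rose, and MET6, SAM1 and SAM2, which fell. These 5 of 10 genes compare with 56.5% of all transcripts, and the 3 methods share their cultures, so they are not independent observations of the heat response. The fit counts aliquots of 1 heat-shocked culture as separate libraries, although only 4 cultures were heat-shocked. Where the heat-shocked cultures differ, as in STR3, MET2 and SAM1 below, its heat p-values can thus be too small and its intervals too narrow. TPM as deposited had a median heat difference of 0.19, 0.26 and 0.29 over all transcripts on the log2 scale with Phenol, RNeasy and Direct-zol, and the differences given here are relative to this shift.

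SAM1 and SAM2, which encode the enzymes that make S-adenosylmethionine, fell furthest. SAM1 with Phenol had 655.05, 625.65, 705.53 and 674.44 TPM in unstressed cultures 1 to 4 and 54.84, 106.66, 109.17 and 119.77 TPM after heat shock. With RNeasy the 4 cultures went from 450.81, 443.57, 457.53 and 431.37 TPM to 49.12, 66.33, 85.79 and 87.31 TPM. With Direct-zol they went from 500.35, 556.81, 561.44 and 589.52 TPM to 62.19, 72.64, 105.35 and 90.25 TPM. The groups were far from overlapping with any method, and culture 1 was the lowest of the heat-shocked cultures with each. The difference of SAM1 was −3.02, −2.91 and −3.05 on the log2 scale (SE 0.155), an 8.13-, 7.49- and 8.29-fold change, with adjusted p of 1.8e-12, 3.1e-12 and 1.5e-12 (limma).

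SAM2 was close behind, and its heat-shocked culture means lay 0.32 apart on the log2 scale, against 0.86 for SAM1. With Phenol it had 392.66, 412.05, 402.98 and 355.68 TPM in unstressed cultures 1 to 4 and 59, 64.24, 71.92 and 63.35 TPM after heat shock. With RNeasy the values were 343.54, 412.16, 387.91 and 375.6 TPM before and 50.36, 54.36, 64.74 and 65.81 TPM after. With Direct-zol they were 380.08, 443.29, 414.78 and 375.38 TPM before and 56.07, 63.76, 68.27 and 65.49 TPM after. No heat-shocked library came near an unstressed one. The difference of SAM2 was −2.79, −2.93 and −2.95 on the log2 scale (SE 0.077), with adjusted p of 2.8e-16, 1.6e-16 and 1.2e-16 (limma). Averaged over the methods, SAM1 had the 74th and SAM2 the 98th lowest heat difference of 6137 transcripts.

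The sum of SAM1 and SAM2 went from 1060 ± 35.7 to 162 ± 32.7 TPM with Phenol, from 826 ± 29.6 to 131 ± 25.6 with RNeasy and from 955 ± 52.1 to 146 ± 23.9 with Direct-zol (mean ± SD, n = 4). The ratio of SAM1 to SAM2 was between 1.08 and 1.90 in the unstressed libraries. It was between 0.929 and 1.89 after heat shock, so the ranges overlapped. The difference of MET6 was −0.93, −1.02 and −1.12 on the log2 scale with Phenol, RNeasy and Direct-zol (SE 0.0874, adjusted p of 1.1e-08, 2.9e-09 and 7.7e-10, limma). Its unstressed libraries lay between 398.84 and 721.38 TPM and its heat-shocked ones between 265.72 and 429.42 TPM, and within each method the 2 ranges were apart. After heat shock MET6 was the highest of the 10 genes with each method, at 400 ± 30.7, 284 ± 15.5 and 284 ± 23.7 TPM (mean ± SD, n = 4), above the ranges of SAM1 and SAM2. MET6, SAM1 and SAM2 were lower in all 12 pairs of libraries from the same culture and method, and their calls held under every alternative setting tried.

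STR3 encodes cystathionine beta-lyase, which forms homocysteine from cystathionine, and MET2 the homoserine O-acetyltransferase that makes the acceptor of sulfide. STR3 with Phenol had 3.87, 3.87, 3.24 and 2.3 TPM in unstressed cultures 1 to 4 and 7.01, 15.88, 30.4 and 19.14 TPM after heat shock. With RNeasy the cultures went from 5.2, 5.38, 5.53 and 3.69 TPM to 6.92, 15.42, 30.54 and 22.43 TPM. With Direct-zol they went from 4.12, 5.11, 5.59 and 3.75 TPM to 8.13, 14.85, 39.34 and 20.59 TPM. Every heat-shocked library was above every unstressed one of its method, and culture 1 was the lowest of the heat-shocked cultures with each. STR3 rose by 1.85, 1.33 and 1.49 on the log2 scale (SE 0.324), with adjusted p of 4.2e-05, 0.0012 and 0.00041 (limma), and was higher in 12 of 12 pairs. With RNeasy the call was lost without culture 2, 3 or 4 (adjusted p of 0.011, 0.014 and 0.025), and in a fit of the RNeasy libraries alone.

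MET2 with Phenol had 5.31, 6.14, 4.64 and 3.68 TPM in unstressed cultures 1 to 4 and 5.14, 11.2, 22.13 and 14.23 TPM after heat shock. With RNeasy the values were 4.86, 6.14, 8.3 and 5.9 TPM before and 7.45, 11.95, 21.7 and 13.82 TPM after. With Direct-zol they were 4.49, 4.55, 5.06 and 4.8 TPM before and 5.5, 11.66, 21.24 and 12.84 TPM after. Culture 1 changed by −0.264, 0.276 and −0.039 on the log2 scale with Phenol, RNeasy and Direct-zol, while the other 3 cultures were higher with each method. The scaled values of the 2 treatments overlapped with each method. The difference was 0.95 on the log2 scale with Phenol and 0.88 with Direct-zol (SE 0.253, adjusted p of 0.0024 and 0.0043, limma), which were called, and 0.70 with RNeasy (adjusted p = 0.019), which was not. Without culture as a block the adjusted p was 0.019 with Phenol and 0.029 with Direct-zol. Both calls were also lost without culture 2, 3 or 4 (adjusted p between 0.014 and 0.059 with Phenol and between 0.033 and 0.05 with Direct-zol), and without culture 1 the RNeasy difference was called (adjusted p = 0.00091). In fits of only the libraries compared, the Phenol and Direct-zol calls were lost (adjusted p of 0.047 and 0.028) and RNeasy was called (0.004).

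The genes of sulfate activation and reduction moved less on scaled values than the genes above. MET5, which encodes the beta subunit of sulfite reductase, was the 1 of these 5 called with every method. With Phenol it had 23.25, 27.46, 20.52 and 21.71 TPM in unstressed cultures 1 to 4 and 35.67, 36.2, 31.29 and 31.54 TPM after heat shock. With RNeasy the values were 25.35, 24.61, 22.11 and 22.61 TPM before and 34.92, 35.09, 35.07 and 39.73 TPM after. With Direct-zol they were 15.78, 16.11, 15.96 and 14.53 TPM before and 22.99, 20.68, 23.6 and 23.9 TPM after. The treatments were apart with each method, and both levels were lowest with Direct-zol. After scaling, MET5 rose by 0.32, 0.34 and 0.23 on the log2 scale (SE 0.0653), with adjusted p of 0.00019, 0.00013 and 0.0037 (limma). The Direct-zol call was lost without culture 1, 3 or 4 (adjusted p of 0.015, 0.032 and 0.044), and in a fit of the Direct-zol libraries alone (0.04).

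MET16, the reductase that makes sulfite, rose with RNeasy and Direct-zol by 0.46 and 0.41 on the log2 scale (SE 0.103, adjusted p of 0.00059 and 0.0014, limma). With Phenol its difference was 0.23 (adjusted p = 0.057), which on TPM as deposited was 0.42 and called (adjusted p = 0.0055). The Direct-zol call was lost without culture 1 (adjusted p = 0.015). In TPM it went from 13 ± 2.90 to 17.6 ± 3.23 with Phenol, from 18.2 ± 1.92 to 30.4 ± 2.84 with RNeasy and from 17.6 ± 1.75 to 29.3 ± 3.33 with Direct-zol (mean ± SD, n = 4).

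MET3 (ATP sulfurylase, the first step), MET14 (the kinase that follows it) and MET10 (the alpha subunit of sulfite reductase) were not called with any method. The heat difference of MET3 was 0.03, 0.03 and 0.07 on the log2 scale. That of MET14 was 0.02, 0.04 and −0.16, and that of MET10 −0.06, −0.12 and −0.13. The 95% intervals of these 9 differences lay between −0.30 and 0.25. On TPM as deposited the 3 values of MET10 and the Direct-zol value of MET14 changed sign, and MET3 with RNeasy and Direct-zol (0.28 and 0.36) and MET14 with RNeasy (0.30) were called as higher, so no direction was given for these genes. The 5 genes together had 116 ± 8.15 TPM with Phenol, 133 ± 3.22 with RNeasy and 118 ± 6.61 with Direct-zol before, and 143 ± 6.80, 176 ± 10.5 and 150 ± 14.0 TPM after heat shock (mean ± SD, n = 4).

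**Figure D2:**
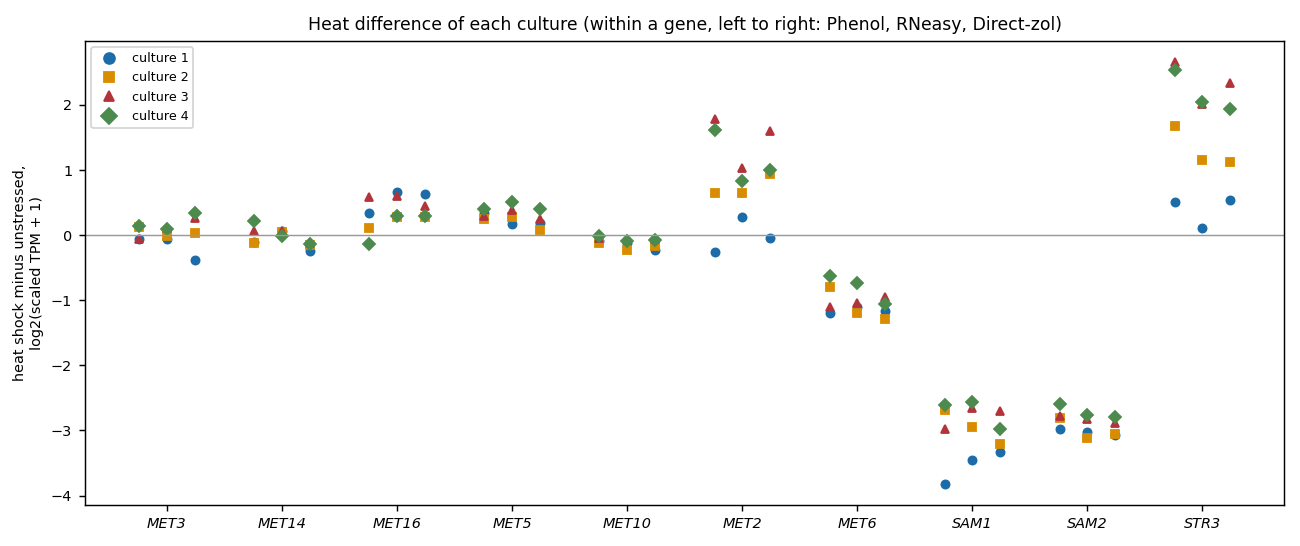
Heat difference of each of the 10 genes in each culture (colour and shape) and with each method, as heat shock minus unstressed on the scale of log2(scaled TPM + 1). SAM1 and SAM2 lie between −3.82 and −2.57 in every culture, whereas MET2 runs from −0.26 to 1.79 and STR3 from 0.10 to 2.66, with culture 1 lowest in both.

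The rest of the pathway was described with 32 further genes, also listed with earlier results of these data known. Of the 32, 30 were tested (SUL1 and the deleted MET17 were not). Of these, 18, 20 and 21 were called in the heat responses with Phenol, RNeasy and Direct-zol, and 16 were called with all 3 methods in 1 direction, 4 higher and 12 lower. That is 53.3% of the 30, beside 56.5% of all transcripts. Their median heat difference was −0.22, −0.28 and −0.23 on the log2 scale, beside −0.002, 0.010 and 0.018 for all transcripts.

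Among the 6 regulators, MET28, a cofactor of Met4, rose by 1.00, 1.46 and 1.08 on the log2 scale with Phenol, RNeasy and Direct-zol (adjusted p of 0.00012 with Phenol, the largest of the 3, limma). MET30 fell, with −0.37, −0.30 and −0.21 (largest adjusted p of 0.0023). CBF1 was lower with Phenol and RNeasy (−0.28 with each, adjusted p of 0.0047 and 0.0046) and had −0.17 with Direct-zol (adjusted p = 0.072). MET32 was higher with RNeasy and Direct-zol (0.49 and 0.52, adjusted p of 0.0038 and 0.0023) and had 0.12 with Phenol (adjusted p = 0.44). MET4 and MET31 were not called, with differences between −0.02 and 0.22 and between −0.30 and −0.18.

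Among the enzymes, SAM4 (which methylates homocysteine with S-adenosylmethionine) and SAH1 (S-adenosylhomocysteine hydrolase) had the largest mean differences, −2.19 and −2.13 on the log2 scale over the 3 methods. About 19.9% of the possible 50-base reads of SAM4 also occur in another coding sequence, so its value is less certain. CYS4 and CYS3, which carry homocysteine to cysteine, fell with mean differences of −1.29 and −0.77. MET8, which makes the siroheme of sulfite reductase, had −1.20, and HOM2, an enzyme of homoserine synthesis, −1.09. Among the transporters, MUP3, a low affinity methionine permease, rose with a mean difference of 1.90, and SOA1, a sulfonate transporter, with 0.44. MMP1 and SAM3, the permeases of S-methylmethionine and S-adenosylmethionine, fell with −1.55 and −1.52. All of these were called with each method.

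Of the 10 genes, 7 were called between isolation methods in at least 1 of 6 comparisons (3 pairs of methods in each treatment), beside 60.5% of all transcripts, so the share was near that of the background. Between Phenol and RNeasy 6 of 10 genes were called in unstressed and 7 in heat-shocked cells, beside 41.8% and 43.7% of all transcripts. Between Phenol and Direct-zol 5 were called in each treatment, beside 44.5% and 42.6%. Between RNeasy and Direct-zol 1 was called in each, MET5, beside 3.89% and 4.43%. MET3, MET2 and STR3 were called in none of these 6 comparisons. Under alternative settings 2 of their differences were called, that of STR3 between Phenol and Direct-zol in unstressed cells with the block of cultures within treatment (−0.32, adjusted p = 0.0058) and that of MET3 between Phenol and RNeasy after heat shock on TPM as deposited (−0.31, adjusted p = 0.0039). On TPM as deposited the median of all transcripts differed by −0.28 and −0.33 between Phenol and RNeasy, by −0.11 and −0.21 between Phenol and Direct-zol and by 0.16 and 0.12 between RNeasy and Direct-zol (unstressed and heat shock), and the differences given here are relative to these shifts.

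MET6 and MET10 were higher with Phenol than with either kit in both treatments. MET6 was higher than with RNeasy by 0.75 in unstressed and 0.84 in heat-shocked cells on the log2 scale (SE 0.0874, adjusted p of 9.4e-07 and 2.1e-07, limma). It was higher than with Direct-zol by 0.50 and 0.68 (adjusted p of 9.6e-05 and 2.8e-06). For MET10 the values were 0.55 and 0.62 against RNeasy and 0.53 and 0.60 against Direct-zol (SE 0.0549, largest adjusted p of 2.6e-07). These 8 calls held under every alternative tried.

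MET5 was lower in steps from Phenol to RNeasy to Direct-zol. It was higher with Phenol than with Direct-zol by 0.63 in unstressed and 0.72 in heat-shocked cells (SE 0.0653, adjusted p of 2.6e-07 and 4.4e-08, limma). Phenol exceeded RNeasy by 0.25 and 0.24 (adjusted p of 0.0030 and 0.0044), and RNeasy exceeded Direct-zol by 0.38 and 0.49 (adjusted p of 0.00087 and 5.6e-05). The step from Phenol to RNeasy was the less certain. On TPM as deposited it was −0.03 and −0.10, and it was lost without culture 1, 2 or 3 (adjusted p between 0.014 and 0.03 in unstressed and between 0.022 and 0.062 in heat-shocked cells). The step from RNeasy to Direct-zol in unstressed cells was lost without culture 1, 2 or 3 (adjusted p of 0.023, 0.014 and 0.013).

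SAM1 and SAM2 were higher with Phenol than with RNeasy. SAM1 differed by 0.87 in unstressed and 0.75 in heat-shocked cells (SE 0.155, adjusted p of 0.00011 and 0.00042, limma), and SAM2 by 0.34 and 0.48 (SE 0.077, adjusted p of 0.0011 and 2.9e-05). On TPM as deposited, SAM2 lost both calls (0.04 and 0.14, adjusted p of 0.63 and 0.095) and SAM1 that in heat-shocked cells (0.41, adjusted p = 0.020). Without culture 1 or 3 the unstressed SAM2 call was lost (adjusted p of 0.018 and 0.020), and without culture 2 the heat-shocked SAM1 difference had an adjusted p of 0.010. Against Direct-zol neither gene was called, with differences of 0.36 and 0.39 for SAM1 and 0.05 and 0.21 for SAM2, although without culture 1 the heat-shocked SAM1 difference was 0.52 (adjusted p = 0.00057). With the block of cultures within treatment SAM1 was called against Direct-zol in both treatments (adjusted p of 0.0025 and 0.0014) and SAM2 after heat shock (0.0057).

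MET14 and MET16 went the other way and were lower with Phenol. MET14 differed from RNeasy by −0.29 and −0.31 and from Direct-zol by −0.44 and −0.27 in unstressed and heat-shocked cells (SE 0.0663, largest adjusted p of 0.0023, limma). MET16 differed from RNeasy by −0.43 in heat-shocked cells (SE 0.103, adjusted p = 0.0018), with −0.20 in unstressed cells (adjusted p = 0.12), and from Direct-zol by −0.35 and −0.53 (adjusted p of 0.0083 and 0.00025). Without culture as a block the calls of MET14 against RNeasy (adjusted p of 0.030 and 0.017) and against Direct-zol after heat shock (0.042) were lost, as was that of MET16 against Direct-zol in unstressed cells (0.021). The same calls were lost without 1 or more single cultures: MET14 against RNeasy without culture 1 (0.011 and 0.016) or, in unstressed cells, 4 (0.028), and against Direct-zol after heat shock without 1 or 2 (0.021 and 0.016). MET16 lost its call against Direct-zol in unstressed cells without culture 1, 2 or 3 (0.046, 0.025 and 0.055) and against RNeasy after heat shock without 1 or 4 (0.015 and 0.013).

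Ordered by coding length, the genes lower with Phenol were the shortest, MET14 (609 bases) and MET16 (786 bases), and the longest, MET6 (2304 bases), MET10 (3108 bases) and MET5 (4329 bases), were all higher with Phenol than with both kits. Lengths between 1149 and 1536 bases belonged to SAM1, SAM2, STR3, MET2 and MET3. Length did not order all differences: between Phenol and RNeasy in unstressed cells SAM1 (1149 bases) had the largest of the 10 genes, 0.87. MET5, the longest, had 0.25. Over all tested transcripts with an annotated coding sequence, the median difference between Phenol and Direct-zol in unstressed cells was −0.20 under 1000 bases (2268 transcripts), −0.03 from 1000 bases, 0.09 from 2000 bases and 0.38 from 3000 bases (508 transcripts). Between Phenol and RNeasy the unstressed medians were smaller, −0.10 under 1000 bases, 0.03 from 2000 bases and 0.09 from 3000 bases. Between RNeasy and Direct-zol the unstressed medians were −0.10 under 1000 bases and 0.25 from 3000 bases. In heat-shocked cells the medians under 1000 bases and from 3000 bases were −0.19 and 0.36 between Phenol and Direct-zol, −0.06 and 0.04 between Phenol and RNeasy and −0.11 and 0.28 between RNeasy and Direct-zol. From 2000 bases, the bin that holds MET6, the heat-shocked median between Phenol and RNeasy was −0.006. The 1 gene of the 10 called between RNeasy and Direct-zol, MET5, was the longest. The paper reports that RNA integrity also differed between the methods, highest with Phenol and lowest with Direct-zol. With RNA integrity as a factor, the paper found fewer transcripts that differed between Phenol and Direct-zol, while most between Phenol and RNeasy stayed. Cells for the kits were lysed with glass beads. The parts of length, RNA integrity and lysis in the differences of the 10 genes were not tested.

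**Figure D3:**
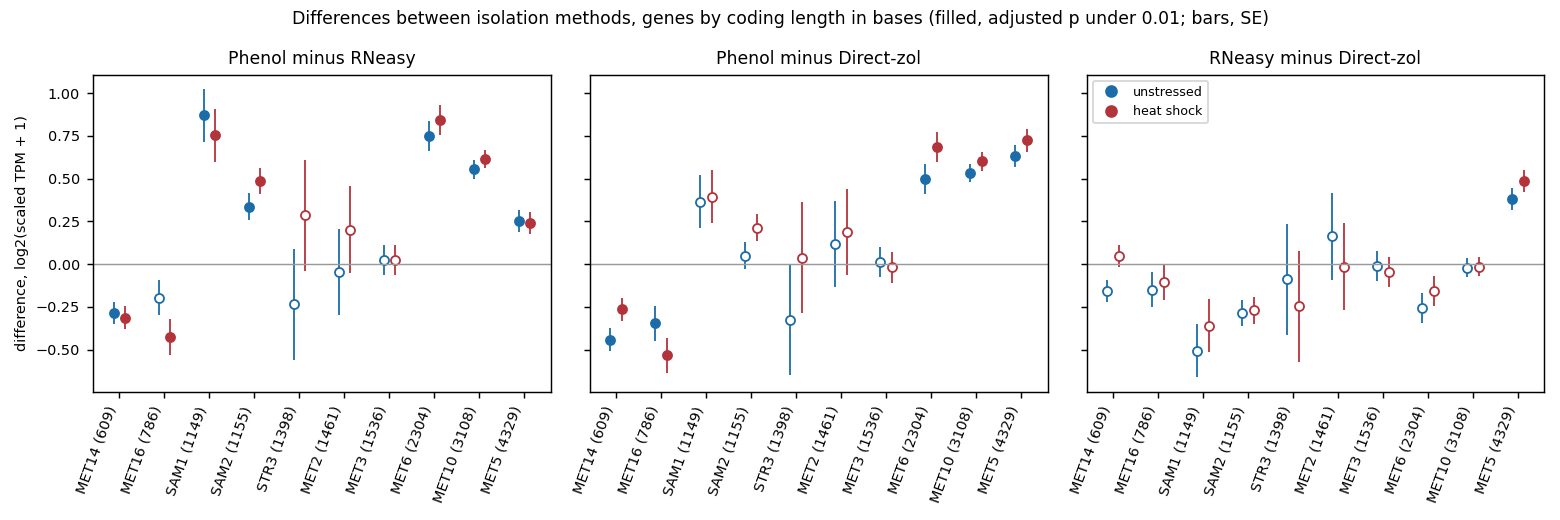
Differences between isolation methods for the 10 genes, ordered by coding length in bases from MET14 (609) to MET5 (4329), in unstressed and heat-shocked cells, on the scale of log2(scaled TPM + 1) with SE. Filled points were called at an FDR under 0.01; the 2 shortest genes lie below zero and the 3 longest above it wherever they were called, and both treatments give similar values.

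Whether the method changed the heat response itself was tested as the difference of the heat responses. None of the 10 genes was called in any of the 3 pairs of methods (limma), and 0 of 6137 transcripts were. At an unadjusted p under 0.05 there were 267, 270 and 69 transcripts, and 0, 0 and 1 of the 10 genes. The 1 was MET14 between RNeasy and Direct-zol, with a difference of 0.21 (95% interval 0.01 to 0.40) and an adjusted p of 1. The fit has 1 culture effect for both treatments, so this test and its intervals also hold the spread of the heat response between cultures. The intervals can thus be wider than pairing the aliquots of a culture would make them. For SAM1 the heat response with Phenol minus that with RNeasy was −0.12 (95% interval −0.58 to 0.34). For SAM2 it was 0.15 (−0.08 to 0.38). For STR3 the interval was wide, 0.52 (−0.44 to 1.48), as it was for MET2, 0.25 (−0.50 to 1.00). In cultures 1 to 4 STR3 rose by 0.507, 1.682, 2.663 and 2.545 with Phenol. With RNeasy it rose by 0.104, 1.154, 2.015 and 2.044, less in each culture. MET2 had no such order, with −0.264, 0.651, 1.789 and 1.617 against 0.276, 0.653, 1.036 and 0.84. A paired difference was not tested.

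The heat-shocked cultures differed from each other in STR3 and MET2 far more than the 3 aliquots of 1 culture did. Culture 1 had 6.92 to 8.13 TPM of STR3 with the 3 methods, culture 2 had 14.85 to 15.88, culture 4 had 19.14 to 22.43 and culture 3 had 30.4 to 39.34. These 4 ranges did not overlap. For MET2 the ranges were 5.14 to 7.45 TPM in culture 1, 11.2 to 11.95 in culture 2, 12.84 to 14.23 in culture 4 and 21.24 to 22.13 in culture 3. Both genes thus had the same order of cultures with each method. Before heat shock the libraries lay between 2.3 and 5.59 TPM for STR3 and between 3.68 and 8.3 TPM for MET2. Unstressed culture means were 0.48 apart on the log2 scale for STR3, with culture 4 the lowest with each method, and 0.295 apart for MET2.

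An F test of the 4 cultures within a treatment, chosen after these values were seen, called 3 of the 10 genes in heat-shocked cells, beside 10.9% of all transcripts. They were STR3 (adjusted p = 2.4e-08, limma), MET2 (3.1e-06) and SAM1 (3.5e-05). Differences between cultures made up 99.1%, 97.3% and 90.9% of the spread of these genes that was left after the mean of each method was subtracted. In unstressed cells none of the 10 was called (limma), while 3.42% of all transcripts were. An unadjusted p under 0.05 was found for 7 of the 10 and for 18.4% of all transcripts. STR3 and MET2 were called in heat-shocked cells without any 1 culture (adjusted p of 0.00076 and 0.0084 without culture 1) and without the libraries of any 1 method. SAM1 rested on culture 1, without which its adjusted p was 0.16, and it was also not called without the RNeasy libraries (0.020). Without culture 1, 89 transcripts were called in place of 671.

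Culture 1 had the lowest mean over the methods after heat shock in 8 of the 10 genes, beside 32% of all transcripts, and culture 3 the highest in 9, beside 28.2% of all transcripts. MET3, MET2, SAM2 and STR3 kept 1 order of the 4 cultures with each method on scaled values (4 of 10 genes, beside 2.77% of all transcripts), from low to high culture 1, 2, 4 and 3 for MET2, SAM2 and STR3. MET5 and MET10 were at the other end, with culture means 0.08 and 0.05 apart on the log2 scale (adjusted p of 0.81 and 0.91, limma), against 2.04 for STR3 and 1.71 for MET2.

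The same F test called 7 of the 30 other pathway genes after heat shock and 1 before it, beside 10.9% and 3.42% of all transcripts. Of these, named after their values were seen, MET28, MET32, MUP1 (the high affinity methionine permease), MUP3, MMP1 and MHT1 (which methylates homocysteine with S-methylmethionine) had culture 1 lowest and culture 3 highest. SAM4 had the reverse. Over all 30 genes after heat shock, culture 1 was lowest in 15 and culture 3 highest in 18, beside 32% and 28.2% of all transcripts. Culture 3 was the lowest in some that were not called, such as HOM2 and HOM6. MUP1 had no heat difference that was called (−0.05 to 0.04 on the log2 scale), yet its heat-shocked cultures were 0.94 apart (adjusted p = 3.8e-07, limma).

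The heat markers also differed between these cultures after heat shock, although only HSP104 was called. After heat shock HSP104 had 2679.96, 2939.49 and 3049.3 TPM in culture 1 with Phenol, RNeasy and Direct-zol, and between 3760.61 and 5487.42 TPM in the other 3 cultures. Its culture means on the log2 scale lay at −0.53, 0.14, 0.29 and 0.10 from their mean for cultures 1 to 4 (adjusted p = 2.3e-05, limma). SSA4 and HSP26 were not called (adjusted p of 0.080 and 0.24), with culture 1 at −0.37 and −0.39 and culture 3 at 0.27 and 0.19. In summed level the 3 markers reached at most 29440.15 TPM. In the mean over the methods culture 1 was thus lowest in all 3 markers after heat shock. HSP104 differed between the cultures before heat shock as well, in another order (−0.06, 0.46, 0.09 and −0.495 for cultures 1 to 4, adjusted p = 3.4e-05, limma). Its rise was 4.07 to 4.27 on the log2 scale in culture 1 and 4.26 to 4.38 in culture 2. In culture 3 it was 4.65 to 4.95 and in culture 4 5.10 to 5.39. The part of the markers in the differences of MET2, STR3 and SAM1 was not tested.

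**Figure D4:**
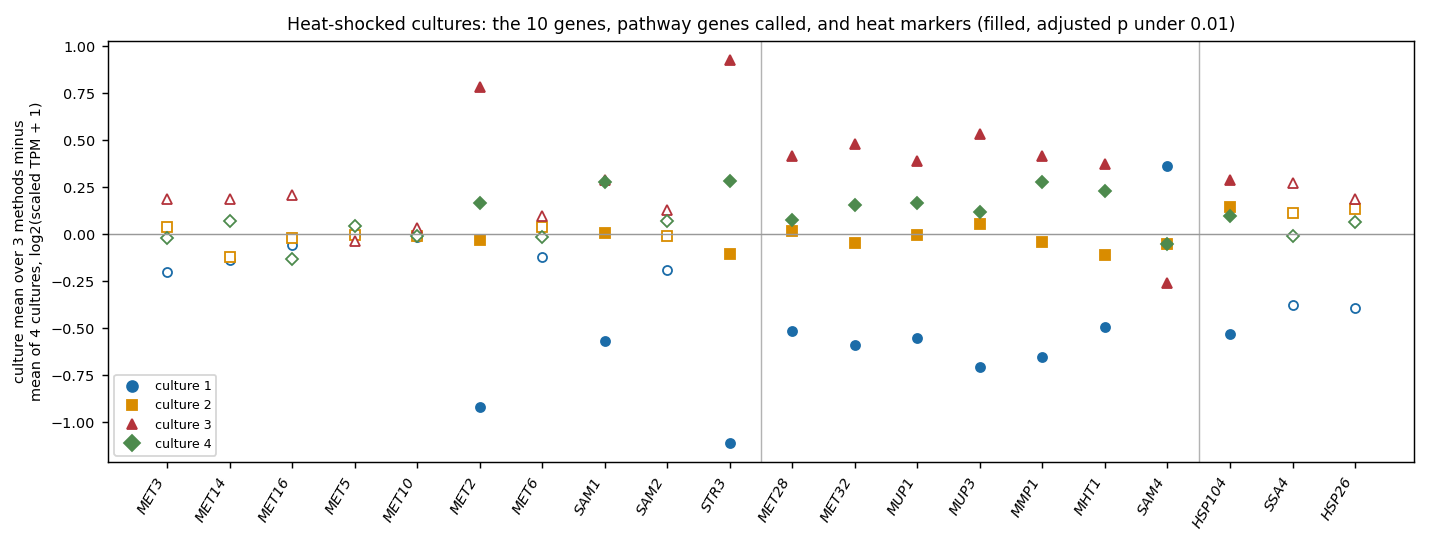
Means of the heat-shocked cultures over the 3 methods, as deviations from the mean of the 4 cultures on the scale of log2(scaled TPM + 1), for the 10 genes, the 7 other pathway genes called in the F test and 3 heat markers. Filled points had an adjusted p under 0.01; STR3 spans 2.04 and MET2 1.71, culture 1 is lowest in most genes shown, and SAM4 has the reverse order.

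Over the 24 libraries, MET2 and STR3 had a Pearson r of 0.94 on deviations from their group means and 0.94 on values. SAM1 and SAM2 had an r of 0.67 on deviations and 0.99 on values, which also hold the fall of both in heat shock. These are descriptions, since libraries of 1 culture are not independent and groups differ in mean. The 5 sulfate assimilation genes were less alike. Their values had an r between −0.70 (MET14 and MET10) and 0.56 (MET5 and MET10). Their deviations had an r between −0.34 (MET14 and MET5) and 0.505 (MET3 and MET10). The transcripts most like the mean of these 5 genes were MAL11, YOR186W, VHR1, GIS1 and RIM15 on the values (r of 0.82 to 0.84) and SLT2, ETP1, ROQ1, ATG8 and SER3 on the deviations from group means (r of 0.82 to 0.84). Those most like the mean of MET2 and STR3 on the deviations, a comparison added after the data were seen, were DPB2, MUP3, SIS1, MUP1 and MSB3 (r of 0.93 to 0.96).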

How the data were processed

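The authors deposited TPM (relative abundances per length, not scaled between libraries) for 6685 transcripts. Per the labels and the study's methods, reads were trimmed with Trimmomatic, mapped with STAR to S288c (sacCer3, R64) and counted with RSEM. The TPM hold no read counts, so depth was not analysed here and replicate spread sets the precision. A table of the authors' own comparisons (fold changes and p-values) was not used. The files name the Direct-zol libraries after the Trizol reagent.

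A scaling factor per library was the trimmed mean of its log ratios to the mean library (30% of ratios and 5% of abundances trimmed, factors 0.776 to 1.27). After a pseudocount of 1 and log2, transcripts with a mean of at least 1 TPM in at least 1 group (6137) entered 1 linear model, fitted with limma 3.58.1 under R 4.3.3, with group and replicate as factors and a trended empirical Bayes step. P-values were two-sided and adjusted by Benjamini-Hochberg, with an FDR of 0.01. A change on the log2(TPM + 1) scale understates that of low genes. The script was tested on simulated data.

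Replicate numbers pair the libraries, since the study took all aliquots of a number from 1 culture. Deviations from group means correlated with a mean r of 0.192 (24 pairs) within a treatment and 0.00661 (36 pairs) across treatments. For libraries with different numbers the mean r was −0.0634 (72 pairs) and −0.00259 (108 pairs). The pairing across treatments thus rests on the study's description and not on these values. No 2 libraries were identical, and the highest r between replicates was 0.9921. Sequences and positions came from RefSeq R64, read with Biopython 1.88. Figures were drawn with matplotlib 3.10.9.

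The 10 genes and the lists were chosen with earlier results of these data known. Named were the 10 genes, 6 regulators, up to 10 other pathway genes called in 1 direction with all 3 methods (largest mean difference first), MET17, and the 5 transcripts most correlated with the sulfate assimilation genes. The F test of cultures, its alternatives and the likeness to MET2 and STR3 were added after seeing the data. Alternatives were the block, scaling, pseudocount, filter, libraries fitted and leaving out each replicate. None of them took RNA integrity into account.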

Additional observations from a re-analysis of the deposited data

Results flagged for a closer look

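In 4 of the 60 groups of 4 libraries (10 genes, 6 groups), 1 library lay apart from the other 3 by Dixon's criterion, which flags about 1 group in 20 by chance. MET10 in the heat-shocked Direct-zol library of culture 1 had 25.93 TPM, and the others lay between 27.2 and 28.41. MET6 in the heat-shocked Phenol library of culture 1 had 357.81 TPM, and the others lay between 400.72 and 429.42. SAM2 in the heat-shocked Direct-zol library of culture 1 had 56.07 TPM, and the others lay between 63.76 and 68.27. STR3 in the unstressed RNeasy library of culture 4 had 3.69 TPM, and the others lay between 5.2 and 5.53. Of the 4 values, 3 came from the heat-shocked culture 1, in which HSP104 was also lowest with each method. The part of this in the 3 values was not tested.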

How the results depend on the processing

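Depth was not analysed here, since the TPM used hold no counts, and each of the 4 cultures was heat-shocked once, so culture and heat shock cannot be told apart. Calls that held under every alternative were the heat calls of SAM1, SAM2 and MET6, of STR3 with Phenol and Direct-zol, of MET5 with Phenol and RNeasy and of MET16 with RNeasy. Between methods they were those of MET6 and MET10 between Phenol and both kits, of MET5 between Phenol and Direct-zol (both treatments) and between RNeasy and Direct-zol (heat shock), of SAM1 between Phenol and RNeasy and MET14 between Phenol and Direct-zol (both unstressed), and of MET16 between Phenol and Direct-zol (heat shock). Counted next are 72 differences of single genes, which leave out those between RNeasy and Direct-zol that were not called. All 72 kept their side of the threshold and their sign with median ratio scaling, with either pseudocount (0.1 or 5) and with a filter of 10 TPM. With no filter 71 did.

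Without the replicate block 66 of the 72 were as before and 6 calls were lost, all with the same direction (MET2 in heat shock with Phenol, 0.95, and Direct-zol, 0.88, and those of MET14 and MET16 given above); the calls of the other genes were unaffected. With the replicate block within treatment, in which heat differences are measured against the spread of aliquots only, between RNeasy and Direct-zol 3 of the 10 genes (unstressed) and 2 (heat shock) were called, and 402 and 424 transcripts in place of 239 and 272. With this block 1 transcript was called for a heat response that differed between Phenol and RNeasy. In fits of only the libraries compared, 3 genes were called between Phenol and RNeasy in unstressed cells, with 2034 transcripts in place of 2568. Between RNeasy and Direct-zol 3 were called (unstressed, with 461 transcripts) and 2 (heat shock, with 299).

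On TPM as deposited 740 and 462 transcripts were called between RNeasy and Direct-zol in unstressed and heat-shocked cells. The share of calls that were higher went from 48.6%, 49.4% and 49.7% to 62.7%, 66.6% and 69% in the heat responses with Phenol, RNeasy and Direct-zol, and between Phenol and RNeasy in unstressed cells from 52.7% to 22%. Signs turned for MET10 in heat shock (0.14, 0.13 and 0.16 with the 3 methods) and MET14 in heat shock with Direct-zol (0.13). Between Phenol and RNeasy they turned for MET3 (−0.26 unstressed and −0.31 heat shock), MET5 (−0.03 and −0.10), MET2 (−0.12, heat shock) and STR3 (−0.0421, heat shock). Between Phenol and Direct-zol they turned for MET3 (−0.0761, unstressed), SAM2 (−0.0444, unstressed) and STR3 (−0.14, heat shock). The cause was not tested.

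With 1 culture left out at a time, 3 to 5 genes were called between Phenol and RNeasy in unstressed and 4 to 6 in heat-shocked cells. The calls over all transcripts were also fewer, 1989 to 2291 in place of 2568 and 1939 to 2355 in place of 2680. Between RNeasy and Direct-zol 0 to 1 genes were called in unstressed cells. Transcripts called between RNeasy and Direct-zol ranged from 89 to 104 (unstressed) and from 83 to 155 (heat shock), with fewer libraries in each fit. Signs were unstable for differences near zero. In heat shock these were MET3 with Phenol (−0.0011 to 0.0645) and Direct-zol (−0.0288 to 0.2149) and MET14 with Phenol (−0.0521 to 0.0559). Between Phenol and RNeasy it was MET2 in unstressed cells (−0.189 to 0.0647). Between Phenol and Direct-zol they were MET3 (−0.032 to 0.0717 unstressed, −0.1136 to 0.0389 heat shock), SAM2 (−0.0026 to 0.1137, unstressed) and STR3 (−0.0146 to 0.0947, heat shock).

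The F test of cultures called 5 of the 10 genes in heat-shocked cells with a filter of 10 TPM. Those added were MET14 and SAM2, close to the threshold (adjusted p of 0.0089 and 0.0093, limma). The share of all transcripts called with this filter is not given here. Leaving out 1 culture gave 89 to 784 transcripts in heat-shocked and 19 to 230 in unstressed cells. Without the RNeasy libraries 178 and 25 transcripts were called, and without the Direct-zol libraries 169 and 37.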
